A study of Mus musculus with 8 samples.

Results

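The Slc25 family comprises the carrier proteins that move metabolites, nucleotides, ions and cofactors across the mitochondrial membranes. Members were taken by symbol as the protein-coding genes named Slc25a followed by digits only, which gave 47 of 38293 gene identifiers in the count table. Poly(A) RNA was measured in left ventricles from C57BL/6J mice after cardiac ischemia-reperfusion injury, in which a coronary artery (LAD) is tied off and released. Every heart received 2 intramyocardial injections of 10 µl of UPy-PEG hydrogel, a polymer gel that serves as a drug depot, and was taken 3 days after injury. In 4 libraries the gel held antimiR-195, named for its target miR-195, a microRNA, and in the other 4 the gel held no drug. Both groups carried the injury and the gel, so neither is an uninjured heart or an injured heart without gel. No label used here gives the age of the animals or states that each library came from its own animal, so p-values here refer only to variation among these libraries, which may be technical.

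Mitochondrial carriers are small proteins of the inner membrane built from similar repeats, and most exchange one substrate for another. In the heart, ADP/ATP carriers and the phosphate carrier feed ATP synthase and export its product, the carnitine/acylcarnitine carrier admits fatty acids for oxidation, and the aspartate-glutamate and oxoglutarate carriers form the shuttle that brings in reducing equivalents from the cytosol. Other members carry amino acids, iron, glutathione, nucleotides and vitamins, and a few act outside the inner membrane, such as Slc25a46 in the outer membrane and Slc25a17 in peroxisomes.

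MicroRNAs such as miR-195 pair through their seed, bases 2 to 8 of the mature strand, with sites in the 3′ UTR of messenger RNAs. The mature strand of mouse miR-195a-5p is shown with 4 related microRNAs that share its seed, because microRNAs with the same seed match the same sites. RefSeq listed 10 mature mouse microRNAs with this seed. Capitals mark the seed, and sequences are from RefSeq on GRCm38.p6.
miR-195a-5p: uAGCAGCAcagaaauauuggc
miR-497a-5p: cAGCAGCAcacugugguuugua
miR-15a-5p: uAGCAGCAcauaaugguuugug
miR-15b-5p: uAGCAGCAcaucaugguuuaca
miR-16-5p: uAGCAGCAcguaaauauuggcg
The strand of miR-195a-5p lies at chr11:70235062-70235082 and that of miR-497a-5p at chr11:70234730-70234751, both on the plus strand. All 5 strands share the bases AGCAGCA.

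Of the 39 members with enough counts for a test, 13 held at least 1 match to this seed in their longest annotated 3′ UTR, or 33.3%. Among all 12868 tested protein-coding genes with an annotated 3′ UTR of at least 50 bases the share was 28.5%. A match was TGCTGCT (7mer-m8), GCTGCTA (7mer-A1) or both together, TGCTGCTA (8mer), on the transcript strand only, and the 8mer contains both shorter words. Members with a match had a median 3′ UTR length of 2242 bases and those without 892.5 bases, so the 2 sets differ in length. The sites below, from GENCODE release M21 on GRCm38, are from the 6 of these 13 carriers whose values in every library are given further on, with 1 of the 4 sites of Slc25a22. Capitals mark the match and lower case the flanking bases.
Slc25a37 second site: gtctgtcgTGCTGCTAcagttgta
Slc25a37 first site: gatggtcaTGCTGCTgcctggga
Slc25a23 first site: cctaaactTGCTGCTgagttccc
Slc25a23 second site: atgccccaGCTGCTAaattccag
Slc25a22 middle site of 3 in a run: aaagctgcTGCTGCTgcttacag
Slc25a12 site: tagacaacGCTGCTAtagataat
Slc25a42 site: ctctgaccTGCTGCTgatctagt
Slc25a30 site: gaaccgccTGCTGCTttcttcct
The second site of Slc25a37, which encodes the iron carrier mitoferrin 1, was the one 8mer among the 21 sites of the family, at chr14:69241894-69241901 on the minus strand. Slc25a22, a glutamate carrier, held 4 matches, and 3 of them overlapped in a run of TGC repeats around the printed site at chr7:141429845-141429851 on the minus strand. The sites of Slc25a23 lay at chr17:57044934-57044940 and chr17:57044599-57044605, and those of Slc25a12 at chr2:71272142-71272148, Slc25a42 at chr8:70186186-70186192 and Slc25a30 at chr14:75762346-75762352, all on the minus strand. A match is a description of letters and does not show binding.

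Total gene counts were 16872968 to 22751753 per library. Levels between libraries are given as CPM (counts scaled by the normalized library size), and levels between genes as the authors' RPKM, which divides by gene length as well. One library stood apart. AntimiR-195 replicate 2 had correlations of log2 CPM across genes of 0.944 to 0.970 with the other libraries, against 0.978 to 0.991 among all other pairs, and many group differences are also given with it left out. Cardiomyocyte marker genes were abundant, with a summed level of 69900 to 84720 CPM for 10 genes in antimiR-195 libraries and 67250 to 80990 CPM in drug-free libraries. The white fat markers Adipoq, Plin1, Cidec and Lep together gave 0.419 to 1.25 CPM with antimiR-195 and 0.423 to 1.11 CPM without drug, and Ucp1 of brown fat had 0 counts in 7 libraries and 0.0462 CPM in hydrogel replicate 3.

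No Slc25 member passed the test between the antimiR-195 and drug-free groups. With edgeR's quasi-likelihood method 0 of 39 members had an adjusted p below 0.05 in either direction, beside 0 of 13972 genes tested (0%). The edgeR adjusted p was 0.9999 for every tested member. At an unadjusted p below 0.05 there was 1 member, Slc25a44, which was lower with antimiR-195, beside 1.27% of all genes tested (0.830% higher and 0.444% lower). DESeq2 and limma-voom called 0 members as well, and over all genes they gave 193 and 333 at an unadjusted p below 0.05, against 178 in edgeR. Log2 fold changes of antimiR-195 over drug-free hydrogel lay between -0.32 and 0.27, and 37 of 39 members, or 94.9%, lay within 0.2 of 0, against 77.8% of all genes tested. The share over all genes was not taken at the members' level, so this contrast does not show that the family was steadier than like genes. In genes of like level the median SD of log2 CPM was 0.204, against 0.216 in the members.

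Small negative values were more frequent than positive ones. Of the 39 members 26 had a log2 fold change below 0 and 13 above, with a median of -0.06, while 47.6% of all genes tested lay below 0 and their median was 0.01. Without antimiR-195 replicate 2 the count below 0 was 26 and the median -0.03. The lowest count, 22, and the median nearest to 0, -0.01, came without hydrogel replicate 3. These counts describe the family and carry no test. For 38 of the 39 members the 95% confidence interval lay inside a 2-fold difference in either direction, that is within -1 and 1 on the log2 scale, and differences smaller than these intervals were not detectable with these libraries. The exception was Slc25a30. In whole ventricle, fewer cells of a type and less RNA per cell cannot be told apart.

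**Figure D1:**
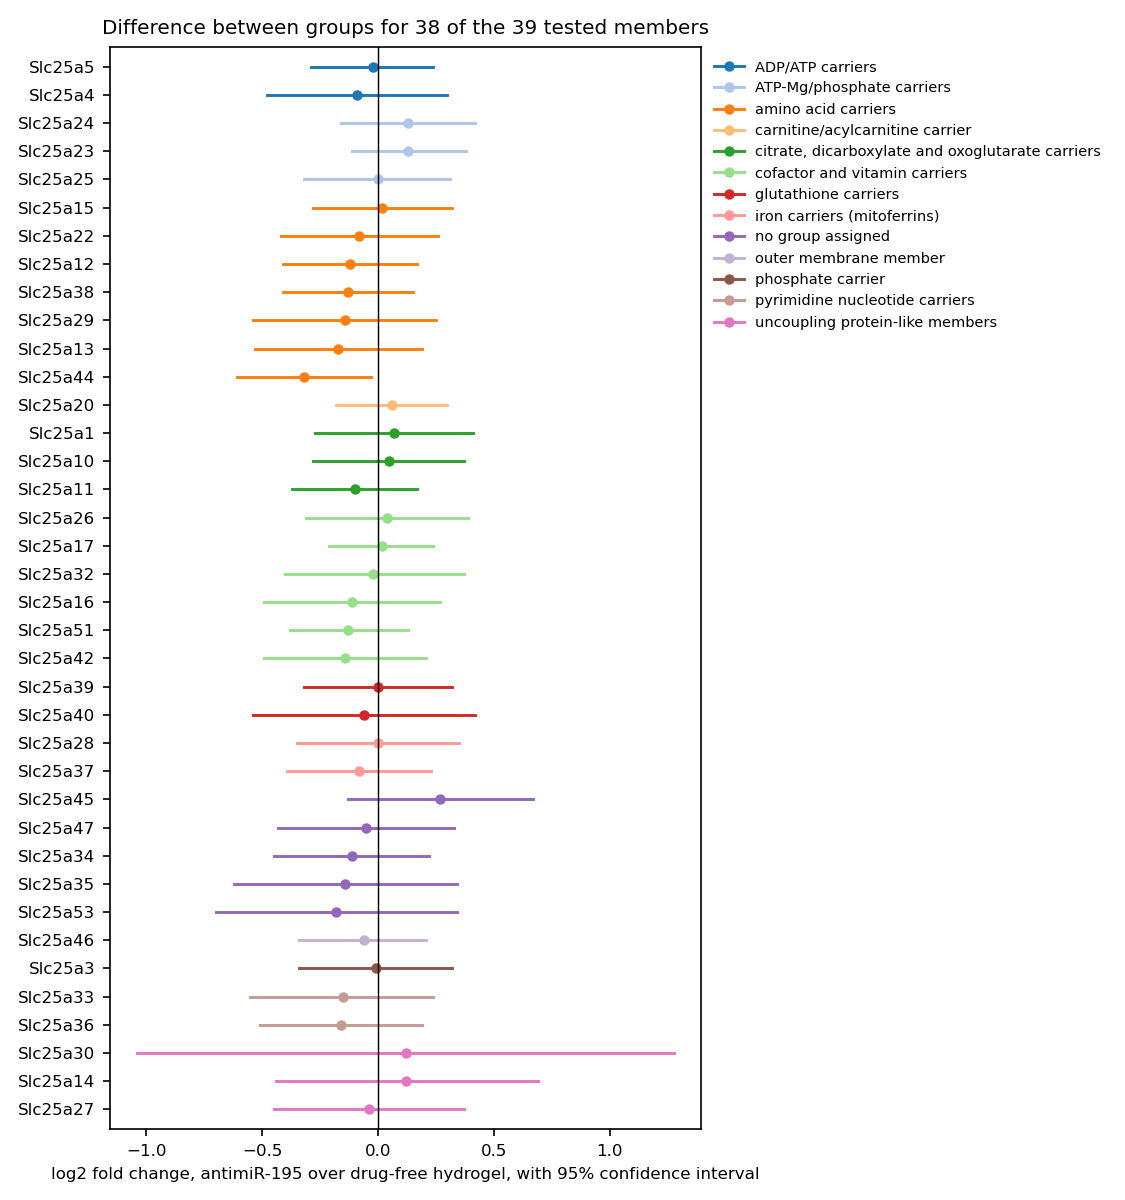
Log2 fold change of antimiR-195 over drug-free hydrogel (horizontal axis) for 38 of the 39 tested Slc25 members, grouped by the substrate they carry (colour); points are edgeR estimates and lines 95% confidence intervals over 4 libraries per group. Every interval but that of Slc25a44, which runs from -0.61 to -0.03, includes 0, and that of Slc25a30, from -1.04 to 1.28, is the widest.

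Levels per length spanned a wide range, led by the carriers of energy metabolism. Slc25a4, the ADP/ATP carrier of heart and muscle also called ANT1, had 1993 ± 343 RPKM with antimiR-195 and 2067 ± 299 RPKM without drug (SD, n = 4 each). It alone made up 60.3% to 66.1% of the summed RPKM of the 47 members in antimiR-195 libraries and 61.5% to 66.3% in drug-free libraries. Slc25a3, the phosphate carrier, followed at 304 ± 48.6 and 299 ± 28.2 RPKM, then the oxoglutarate carrier Slc25a11 at 249 ± 15.2 and 262 ± 21.6 RPKM, in the same order of groups. The ranges of Slc25a3 (263 to 372 RPKM over the 8 libraries) and Slc25a11 (228 to 289 RPKM) overlapped over all libraries. Within each of the 8 libraries, though, Slc25a3 was above Slc25a11. Shares and orders in RPKM depend on the gene lengths that it divides by, 5550 bases for Slc25a3 and 2120 for Slc25a11. Mean CPM, which uses no length, was 1672 and 1681 for Slc25a3 and 524 and 561 for Slc25a11, in the same order of groups.

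Slc25a5, the ADP/ATP carrier of dividing and many other cells (ANT2), ranged from 114 to 155 RPKM, and Slc25a20, the carnitine/acylcarnitine carrier, from 88.6 to 110 RPKM, below it in every library. The carriers that came next had overlapping ranges and no fixed order within libraries. These were Slc25a13, the aspartate-glutamate carrier citrin, at 33.3 to 54.6 RPKM, the glutathione carrier Slc25a39 at 40.9 to 63.1 RPKM, and Slc25a34, whose substrate is not assigned here, at 37.4 to 55.1 RPKM. Slc25a12, the aspartate-glutamate carrier aralar, ranged from 23.9 to 33.0 RPKM and overlapped with the iron carrier mitoferrin 2, Slc25a28, at 14.8 to 24.5 RPKM, which was the lower of these in 7 of 8 libraries. In all, 38 members had a mean above 1 RPKM.

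**Figure D2:**
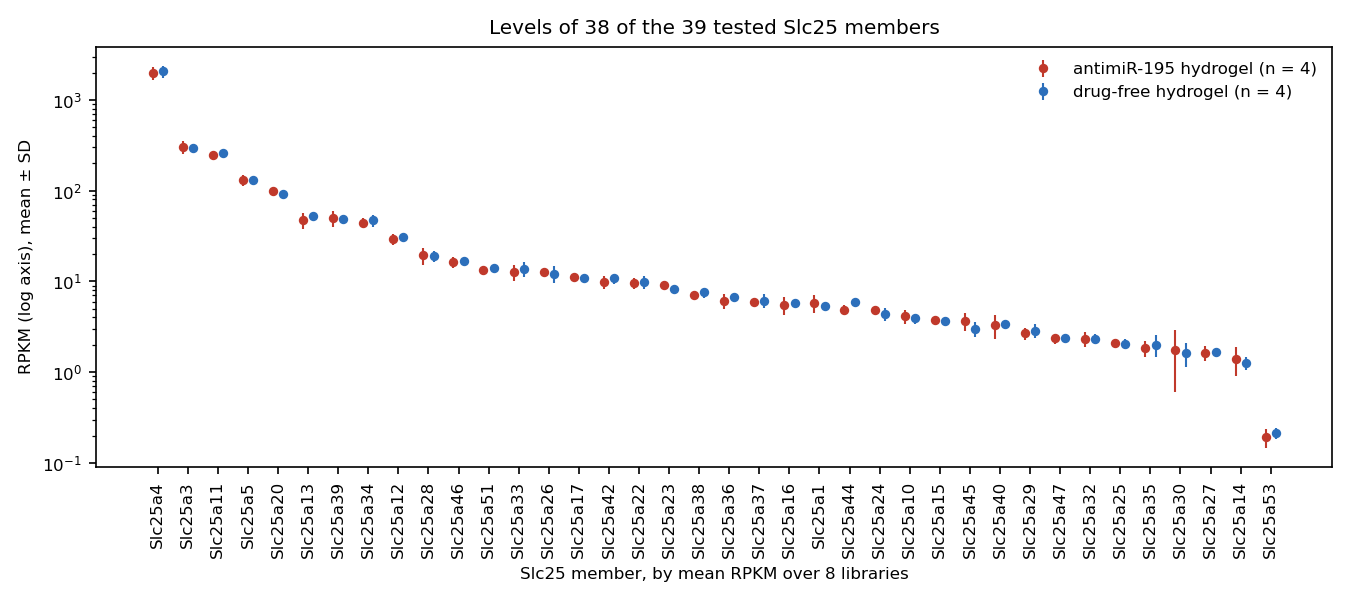
Mean RPKM with SD (vertical log axis, n = 4 per group) of 38 of the 39 tested Slc25 members in antimiR-195 (red) and drug-free (blue) hydrogel libraries, ordered by the mean over all 8 libraries. Levels run from 2030 RPKM for Slc25a4 to 0.201 RPKM for Slc25a53, and the means of both groups lie close to each other throughout.

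The other 8 members did not pass the filter on low counts. Slc25a48 and Slc25a54 had 0 counts in all 8 libraries, where a count of 0 allows up to 3 counts, or 0.138 to 0.180 CPM by library. Slc25a41 had 1 count in 1 library, and Slc25a21, the oxodicarboxylate carrier, at most 1 count in any. The ornithine carrier Slc25a2 had 0 to 5 counts, Slc25a43 had 3 to 8, and Slc25a31, the ADP/ATP carrier known from testis, 1 to 21. Slc25a18, the glutamate carrier known from brain astrocytes, had 0 to 7 counts, with 0.112, 0.0547, 0 and 0.171 CPM in antimiR-195 libraries 1 to 4 and 0.317, 0.0489, 0.277 and 0.389 CPM in drug-free libraries 1 to 4.

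Some members are neighbours in the genome. Slc25a5 lies 18448 bases from Slc25a43 on the X chromosome, Slc25a24 lies 6461 bases from Slc25a54, which had 0 counts, on chromosome 3, Slc25a23 lies 2056 bases from Slc25a41 on chromosome 17, and Slc25a29 and Slc25a47 start 162 bases apart on opposite strands of chromosome 12. In the first 3 of these pairs 1 partner passed the filter and the other did not. Exon bases were shared with another annotated gene in 14 of the 47 members. The shared part exceeded 10% in Slc25a35, at 31.3% with Rangrf, and in Slc25a33, at 14.9% with Gm13068, both on the opposite strand, and because the sources used here do not give the strand setting of the counting, the levels of these members are uncertain.

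ADP/ATP and phosphate carriers were close in both groups. Slc25a4 (chromosome 8, 46206797 to 46211284, GRCm38) had 4825, 5462, 3775 and 4490 CPM in antimiR-195 replicates 1 to 4, against 4698, 4992, 6077 and 3969 CPM in drug-free replicates 1 to 4. Its highest library was drug-free and its lowest had antimiR-195, but the groups overlapped, and the log2 fold change was -0.09 ± 0.17 (SE). Slc25a5 had 216, 247, 189 and 201 CPM with antimiR-195 and 202, 210, 240 and 216 CPM without drug, a log2 fold change of -0.02 ± 0.12. Reads that align to more than 1 place were not counted, so reads shared with processed copies of Slc25a5 are missing from its level.

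Slc25a3 had 1656, 1998, 1476 and 1556 CPM with antimiR-195 and 1727, 1643, 1924 and 1430 CPM without drug, a log2 fold change of -0.01 ± 0.15. For Slc25a3, Slc25a4 and Slc25a5 alike, antimiR-195 replicate 2 was the highest antimiR-195 library and replicate 3 the lowest, and hydrogel replicate 3 was the highest drug-free one. The cardiomyocyte marker sum had the same extremes within the antimiR-195 group, at 84720 and 69900 CPM for replicates 2 and 3, and was also highest in hydrogel replicate 3 among drug-free libraries, at 80990 CPM. Its part in the levels of these carriers was not tested.

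The 3 tested ATP-Mg/phosphate carriers, which bind calcium and adjust the adenine nucleotide pool of the matrix, gave 0 calls. Slc25a23 had 40.3, 50.1, 51.2 and 50.5 CPM with antimiR-195 and 42.1, 47.8, 42.2 and 42.9 CPM without drug, a log2 fold change of 0.13 ± 0.11 with an unadjusted p of 0.256. Of the antimiR-195 libraries, 3 lay above every drug-free library, and antimiR-195 replicate 1 lay below all of them. Slc25a24 had 18.4, 16.96, 15.7 and 15.2 CPM with antimiR-195 and 15.7, 13.7, 13.4 and 17.8 CPM without drug, a log2 fold change of 0.13 ± 0.13. Slc25a25 averaged 9.62 ± 1.09 and 9.65 ± 1.18 CPM with and without antimiR-195 (SD, n = 4).

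Among the amino acid carriers 6 of 7 tested members had a log2 fold change below 0, with a median of -0.13, and 0 passed the test. Slc25a44, the carrier of branched-chain amino acids, had the smallest unadjusted p of the family. It had 16.8, 13.95, 18.6 and 19.99 CPM in antimiR-195 replicates 1 to 4, against 20.4, 23.2, 22.8 and 20.15 CPM in drug-free replicates 1 to 4. All antimiR-195 libraries lay below all drug-free ones, and replicate 4 of each group came closest to the other group. The log2 fold change was -0.32 ± 0.13 (95% confidence interval -0.61 to -0.03), with an unadjusted p of 0.0355 and a value of 0.9999 after edgeR's adjustment. The log2 fold change was -0.23 without antimiR-195 replicate 2, the lowest library.

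Slc25a44 was the 1 member of 39 whose groups did not overlap, where 1.07% of all genes tested had this property in either direction and 0.544% with antimiR-195 lower. Without antimiR-195 replicate 4 there were 3 such members, and without antimiR-195 replicate 1 or 3 or hydrogel replicate 3 or 4 there were 2. The share of all genes was also higher with 1 library left out, at 3.31% without antimiR-195 replicate 4 and 2.04% to 3.81% over the 8 choices. The gene lies on chromosome 3 at 88410498 to 88425139 on the minus strand, and no seed match was found in its 3′ UTR of 2395 bases. Its level per length was 4.87 ± 0.633 RPKM with antimiR-195 and 5.97 ± 0.283 RPKM without drug (SD, n = 4).

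The aspartate-glutamate carriers of the malate-aspartate shuttle gave 209, 170, 239 and 234 CPM with antimiR-195 and 228, 248, 228 and 223 CPM without drug for Slc25a12. For Slc25a13 the values were 148, 98.8, 164 and 169 CPM with antimiR-195, against 161, 157, 176 and 158 CPM without drug. In both carriers antimiR-195 replicate 2 was the lowest of the 8 libraries and the other antimiR-195 libraries mixed with the drug-free ones. Log2 fold changes were -0.12 ± 0.13 for Slc25a12 and -0.17 ± 0.16 for Slc25a13, and without antimiR-195 replicate 2 they were -0.03 and -0.02 in the same order of genes. Slc25a38, the glycine carrier needed for heme synthesis, had 19.0, 20.7, 18.1 and 19.1 CPM with antimiR-195 and 21.4, 18.2, 25.2 and 19.5 CPM without drug, a log2 fold change of -0.13 ± 0.13.

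Slc25a22, the glutamate carrier with 4 seed matches, had 44.9, 34.95, 34.05 and 38.6 CPM with antimiR-195 and 36.7, 47.2, 45.7 and 31.0 CPM without drug, a log2 fold change of -0.08 ± 0.15. The drug-free libraries spanned the whole range, and all antimiR-195 libraries lay inside it. Slc25a15, the ornithine carrier, averaged 12.8 ± 0.867 and 12.6 ± 1.81 CPM, and Slc25a29, a carrier of basic amino acids, 6.89 ± 1.01 and 7.59 ± 1.55 CPM, with and without antimiR-195.

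**Figure D3:**
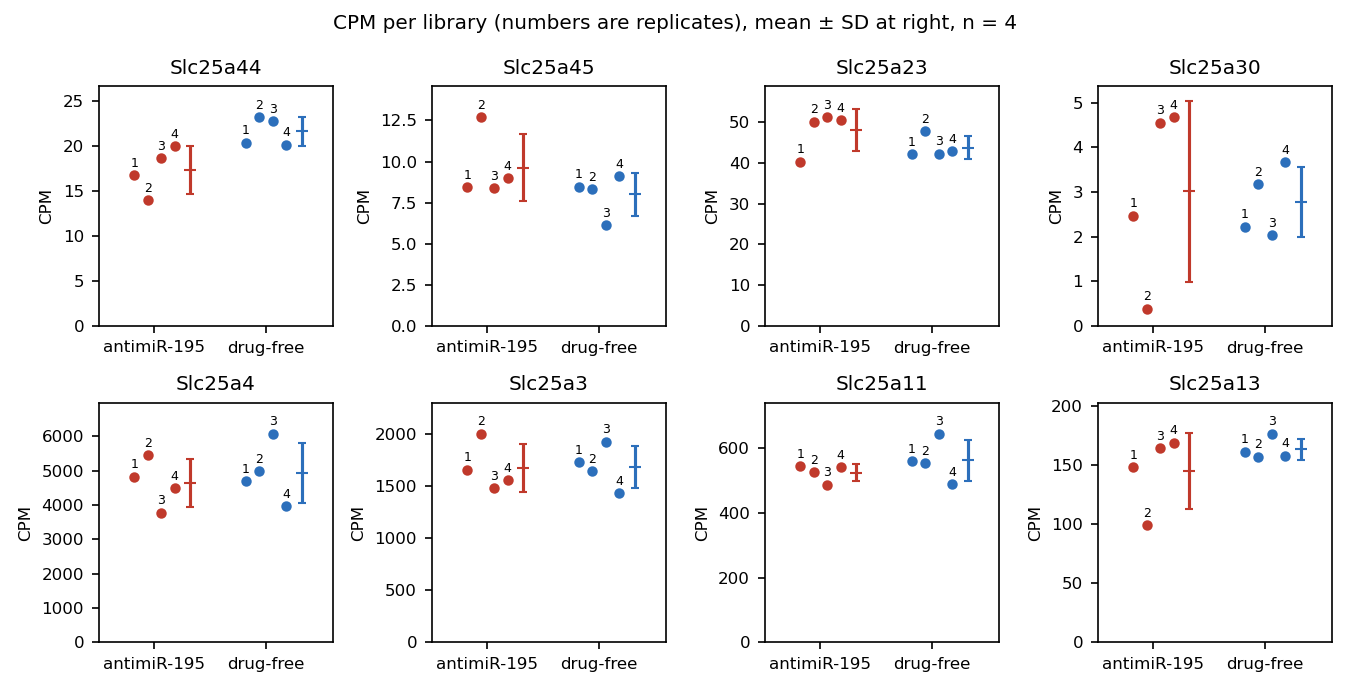
CPM of 8 Slc25 members in each library (points, numbered by replicate; antimiR-195 red at left, drug-free hydrogel blue at right) with the mean ± SD of 4 libraries beside them. The groups are separate in Slc25a44 and overlap in the other 7 members, and antimiR-195 replicate 2 is the lowest library in Slc25a30 and Slc25a13 and the highest in Slc25a45 and Slc25a3.

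The carriers of fuel and citric acid cycle intermediates did not separate by group. Slc25a20, the entry route of fatty acids, had 191, 165, 161 and 183 CPM with antimiR-195 and 157, 175, 180 and 159 CPM without drug, a log2 fold change of 0.06 ± 0.11. It varied little, with an SD of log2 CPM over the 8 libraries of 0.104, where the median of the tested members was 0.216 and that of all genes tested 0.244. Slc25a11 had 544, 525, 487 and 540 CPM with antimiR-195 and 560, 553, 643 and 489 CPM without drug, a log2 fold change of -0.10 ± 0.12. Slc25a1, the citrate carrier that supplies the cytosol for lipid synthesis, had 12.3, 16.1, 11.2 and 10.2 CPM with antimiR-195 and 11.7, 11.98, 12.7 and 10.99 CPM without drug. Its log2 fold change was 0.07 ± 0.15, and -0.08 without antimiR-195 replicate 2. The dicarboxylate carrier Slc25a10 averaged 14.1 ± 2.20 and 13.6 ± 1.59 CPM with and without antimiR-195.

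Among the 7 cofactor and vitamin carriers, 5 lay below 0 and 2 above, the median log2 fold change was -0.11, and 0 were called. Slc25a51, which carries NAD into mitochondria, had 70.2, 60.7, 79.4 and 78.5 CPM with antimiR-195 and 76.3, 80.5, 83.0 and 75.3 CPM without drug, a log2 fold change of -0.13 ± 0.11, or -0.05 with antimiR-195 replicate 2 left out.

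Slc25a42, the coenzyme A carrier, had 58.7, 44.1, 67.2 and 66.9 CPM with antimiR-195 and 66.4, 76.7, 65.0 and 53.6 CPM without drug, a log2 fold change of -0.14 ± 0.16, or -0.03 with antimiR-195 replicate 2 left out. Slc25a16, also linked to coenzyme A, had 28.4, 17.1, 31.2 and 28.5 CPM with antimiR-195 and 30.0, 29.3, 28.1 and 26.0 CPM without drug. Its lowest value was again that of antimiR-195 replicate 2, and the log2 fold change of -0.11 ± 0.17 was 0.05 without it. Slc25a17, the peroxisomal member, was the steadiest of the family, at 18.5 ± 0.531 and 18.3 ± 1.10 CPM with and without antimiR-195 (SD, n = 4). Slc25a26, the carrier of S-adenosylmethionine, averaged 24.2 ± 0.931 and 23.5 ± 5.80 CPM, and the folate carrier Slc25a32 6.84 ± 1.41 and 6.93 ± 0.634 CPM, with and without antimiR-195.

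The iron, glutathione and pyrimidine nucleotide carriers overlapped between the groups. Slc25a37, mitoferrin 1, had 23.1, 22.65, 26.3 and 25.6 CPM with antimiR-195 and 22.1, 32.5, 26.2 and 22.5 CPM without drug, a log2 fold change of -0.08 ± 0.14. The summed erythroid markers gave 1053, 1925, 510 and 558 CPM in antimiR-195 replicates 1 to 4. Drug-free replicates 1 to 4 gave 404, 1534, 1397 and 415 CPM. The part of erythroid cells in the level of Slc25a37 was not tested. Slc25a28, mitoferrin 2, had 30.1, 35.8, 22.7 and 27.6 CPM with antimiR-195 and 31.9, 27.8, 32.9 and 23.4 CPM without drug, a log2 fold change of 0.00 ± 0.16.

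For the glutathione carrier Slc25a39 the libraries gave 134, 168, 114 and 125 CPM with antimiR-195 and 126, 134, 158 and 121 CPM without drug. The group means were 135 ± 23.5 and 135 ± 16.5 CPM, with a log2 fold change of 0.00 ± 0.15. Its relative Slc25a40 had 9.30, 5.20, 12.1 and 9.80 CPM with antimiR-195 and 9.73, 9.73, 9.28 and 9.16 CPM without drug. The drug-free libraries of Slc25a40 were tightly grouped, while the antimiR-195 libraries held both the lowest and the highest value, and the log2 fold change was -0.06 ± 0.22.

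Slc25a33 had 28.5, 24.1, 17.7 and 24.9 CPM with antimiR-195 and 28.8, 20.2, 32.5 and 24.3 CPM without drug, a log2 fold change of -0.15 ± 0.18. Slc25a36, which like Slc25a33 carries pyrimidine nucleotides for mitochondrial DNA and RNA, had 42.6, 29.9, 51.4 and 41.9 CPM with antimiR-195 and 44.5, 53.8, 42.7 and 44.0 CPM without drug, a log2 fold change of -0.16 ± 0.16, or -0.03 and -0.28 with antimiR-195 replicate 2 or 3 left out in turn. Neither carrier separated the groups.

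The members related to uncoupling proteins included the most variable one of the family, Slc25a30. Slc25a30, first described in kidney, had 2.46, 0.383, 4.55 and 4.67 CPM with antimiR-195 and 2.22, 3.18, 2.03 and 3.66 CPM without drug. AntimiR-195 replicate 2 was far below the other libraries, replicates 3 and 4 were above all drug-free ones, and the SD of log2 CPM was 1.05. The log2 fold change was 0.12 ± 0.52. It became 0.49 when antimiR-195 replicate 2 was left out and -0.18 when replicate 4 of that group was. Slc25a14, best known from brain, had 4.20, 4.27, 2.33 and 2.28 CPM with antimiR-195 and 3.44, 2.40, 3.00 and 3.22 CPM without drug, a log2 fold change of 0.12 ± 0.26. Replicates 1 and 2 with antimiR-195 lay above all drug-free libraries and replicates 3 and 4 below them. Slc25a27, also best known from brain, averaged 4.35 ± 0.861 and 4.47 ± 0.406 CPM with and without antimiR-195.

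Members without an assigned substrate gave the highest positive value. Slc25a45 (chromosome 19, 5877808 to 5885878) had 8.46, 12.7, 8.38 and 8.999 CPM with antimiR-195 and 8.46, 8.31, 6.14 and 9.10 CPM without drug. The log2 fold change of 0.27 ± 0.18 rested on a high antimiR-195 replicate 2 and a low hydrogel replicate 3, and was 0.11 without antimiR-195 replicate 2 and 0.16 without hydrogel replicate 3. Slc25a34 had 132, 110, 104 and 126 CPM with antimiR-195 and 128, 129, 155 and 97.2 CPM without drug, a log2 fold change of -0.11 ± 0.15. The outer membrane member Slc25a46, which takes part in mitochondrial fusion and fission, averaged 71.4 ± 10.9 and 74.5 ± 3.55 CPM, and Slc25a47, known mainly from liver, 3.68 ± 0.385 and 3.80 ± 0.517 CPM, with and without antimiR-195. The other members with no group, Slc25a35 and Slc25a53, had log2 fold changes of -0.14 ± 0.22 and -0.18 ± 0.24.

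The spread between libraries was led by antimiR-195 replicate 2. It was the lowest of the 8 libraries for 13 of the 39 members, or 33.3%, and the highest for 8, or 20.5%, where over all genes tested it was the lowest for 33.1% and the highest for 30.8%. Members lowest there included Slc25a12, Slc25a13, Slc25a16, Slc25a30, Slc25a36, Slc25a40 and Slc25a44. Members highest there were Slc25a1, Slc25a3, Slc25a5, Slc25a10, Slc25a14, Slc25a28, Slc25a39 and Slc25a45. Their lengths, as implied by the counts and RPKM together, differed in the same direction as over all genes. The 13 low members had a median length of 3677 bases and the 8 high ones 2507 bases, and over all genes the medians were 4937 and 2353 bases. The part of length or RNA quality in these values was not tested. By this implied length, Slc25a30 at 1706 bases and Slc25a3 at 5550 bases went the other way, and the 2 sets overlapped. Slc25a10, highest in that library, had 3455 bases. Slc25a13 (3071 bases), Slc25a27 (2687), Slc25a32 (2945) and Slc25a40 (2777), all lowest there, were shorter. The longest annotated 3′ UTR of Slc25a30 alone had 2532 bases, so its implied length is not that of its full annotated transcript. Implied lengths were not checked against transcript lengths.

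Leaving antimiR-195 replicate 2 out also moved other log2 fold changes, to -0.11 for Slc25a3, -0.18 for Slc25a4, -0.10 for Slc25a5, -0.03 for Slc25a14, 0.09 for Slc25a20, -0.04 for Slc25a22, -0.12 for Slc25a28, -0.05 for Slc25a37, -0.12 for Slc25a39 and 0.13 for Slc25a40. Of the members described by group means, Slc25a10 moved to -0.01, Slc25a25 to 0.04, Slc25a27 to 0.10, Slc25a32 to 0.11, Slc25a35 to -0.02, Slc25a46 to 0.03 and Slc25a47 to -0.10.

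AntimiR-195 replicate 3 was the lowest library for 10 members, or 25.6%, against 18.1% of all genes tested. Hydrogel replicate 3 was the highest for 11, or 28.2%, against 11.5% of all genes. The median deviation of the 39 members from their own 8-library means was 0.02, -0.05, -0.05 and 0.05 on the log2 scale in antimiR-195 replicates 1 to 4, and -0.03, 0.05, 0.08 and -0.02 in drug-free replicates 1 to 4. The groups mixed in this measure. In other genes between the quartiles of the members' level, 7050 in all, the median SD of log2 CPM was 0.204, close to the 0.216 of the members.

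**Figure D4:**
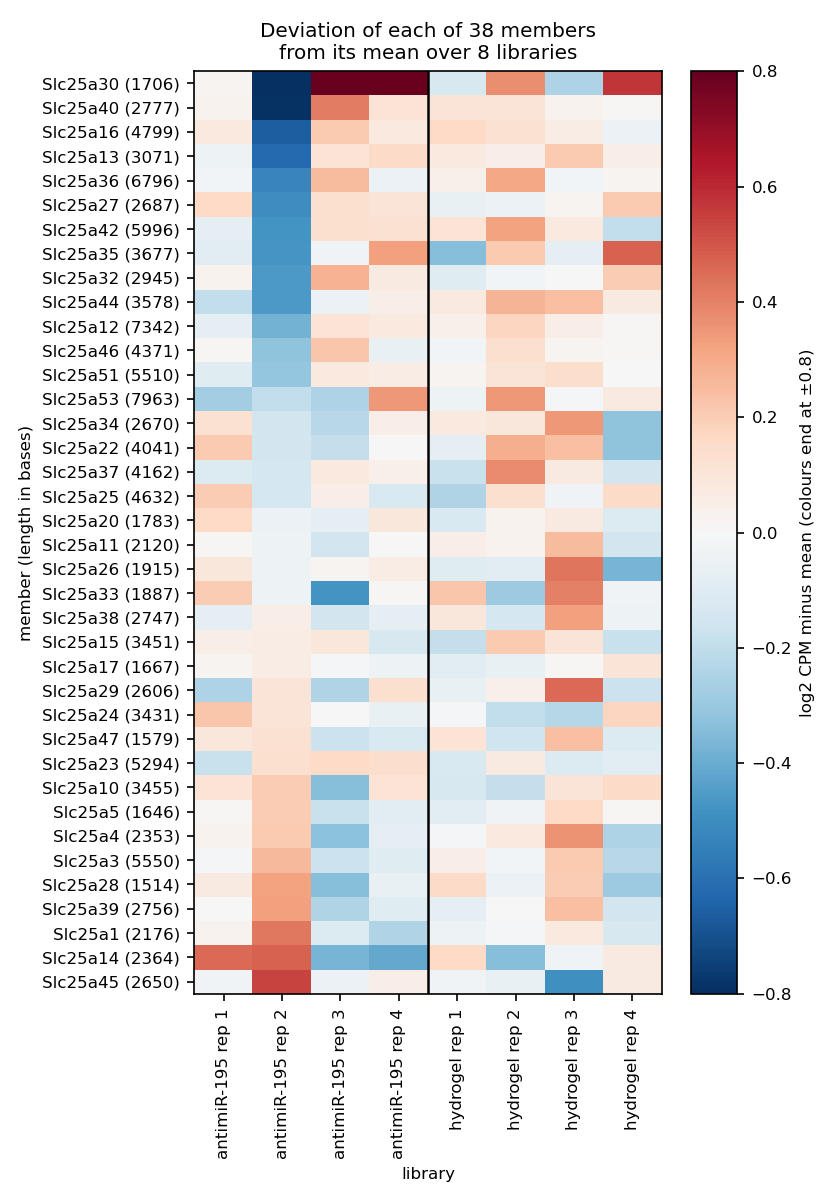
Log2 CPM of 38 of the 39 tested Slc25 members (rows, with the implied length in bases) minus the member's mean over the 8 libraries (columns, antimiR-195 left of the line and drug-free hydrogel right), with rows sorted by antimiR-195 replicate 2. That library is the lowest of all 8 for 13 members and the highest for 8, and colours of both signs appear in every column on each side of the line.

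Ratios of related carriers within a library do not depend on the scaling of libraries, and 7 of 8 such pairs could be tested. The two-sided exact permutation test runs over 70 ways to choose 4 libraries from 8 and has a smallest possible p of 0.0286, and adjusted values are Benjamini-Hochberg over the 7 pairs. Slc25a4 exceeded Slc25a5 in RPKM by 15.5-fold on geometric average (12.9-fold to 17.7-fold). This fold rests on lengths of 2353 and 1646 bases, and reads of Slc25a5 that align to more than 1 place are missing from it. The log2 ratio was 3.96, 3.95, 3.80 and 3.97 with antimiR-195 and 4.03, 4.05, 4.15 and 3.69 without drug. The difference of -0.06 was within the spread (exact permutation p = 0.629, adjusted p = 1).

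Slc25a12 stood at 0.609 of the RPKM of Slc25a13, with mean log2 ratios of -0.68 ± 0.14 with antimiR-195 and -0.75 ± 0.12 without drug (SD, n = 4, exact permutation p = 0.543). This order rests on the lengths behind RPKM, 7342 bases for Slc25a12 and 3071 for Slc25a13. In mean CPM Slc25a12 was the higher, at 213 against 145 with antimiR-195 and 232 against 163 without drug. Mitoferrin 1 stood at 0.316 of mitoferrin 2 in RPKM, with log2 ratios of -1.69 ± 0.38 and -1.63 ± 0.33 (exact permutation p = 0.771). This ratio too rests on lengths, 4162 bases for mitoferrin 1 and 1514 for mitoferrin 2. In mean CPM the 2 were closer, at 24.4 against 29.0 with antimiR-195 and 25.8 against 29.0 without drug. Slc25a39 exceeded Slc25a40 by 14.9-fold, with log2 ratios of 3.95 ± 0.76 and 3.84 ± 0.18, a difference of 0.12 within the spread, and the highest value, 5.03, in antimiR-195 replicate 2. The pyrimidine nucleotide pair Slc25a33 and Slc25a36 gave log2 ratios of 1.05 ± 0.53 and 1.02 ± 0.44 (exact permutation p = 0.914). Their lengths were 1887 and 6796 bases, and the order was the reverse in mean CPM. There Slc25a33 was the lower, at 23.8 against 41.5 with antimiR-195 and 26.4 against 46.3 without drug. Slc25a23 over Slc25a24 gave 0.91 ± 0.28 and 0.91 ± 0.24 (exact permutation p = 1), and Slc25a16 over Slc25a42 gave -0.87 ± 0.14 and -0.88 ± 0.14 (exact permutation p = 0.943). All 7 adjusted p-values of these exact tests were 1. Slc25a22 exceeded Slc25a18 in every library, by at least 27.0-fold where Slc25a18 had counts, and since Slc25a18 had 0 counts in antimiR-195 replicate 3 that pair has no test.

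**Figure D5:**
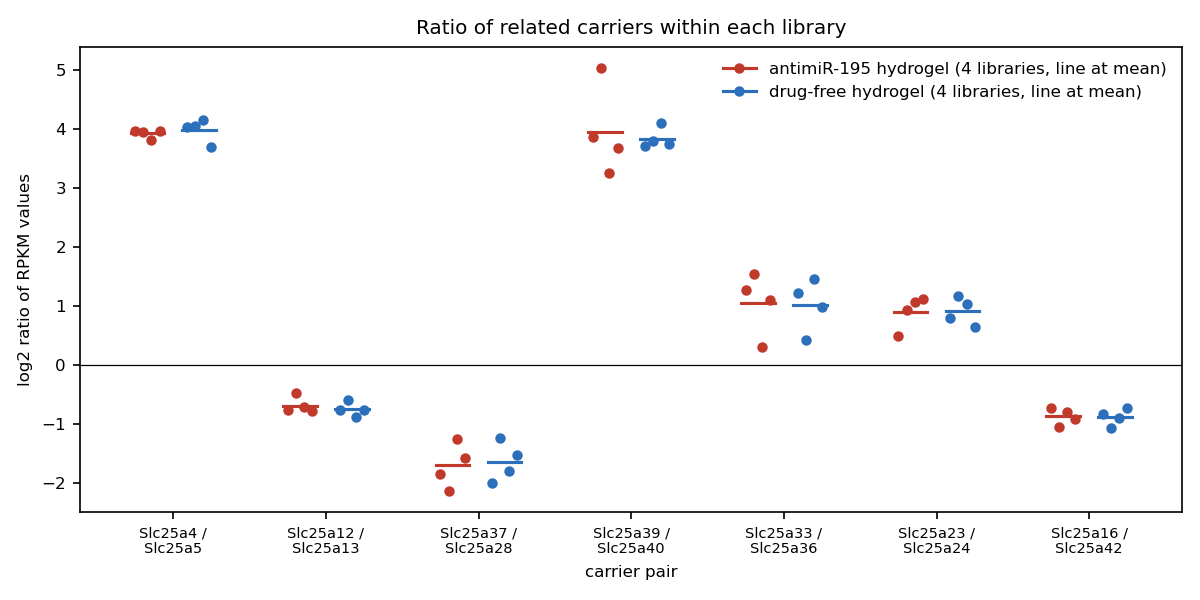
Log2 ratio of the RPKM of related Slc25 carriers within each library (points) for 7 pairs, with antimiR-195 libraries in red left of drug-free libraries in blue and a line at the mean of 4. In every pair the groups overlap, and the widest spread is that of Slc25a39 over Slc25a40 with antimiR-195, where replicate 2 reaches 5.03.

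Members with a seed match lay within the range of log2 fold changes of those without. Of the 13 tested members with a match 5 lay above 0 and 8 below, from -0.14 to 0.13, and the median was -0.02. Among the 26 without a match 8 were positive and 18 negative, and the median was -0.07. The 2 sets were not tested against each other. Slc25a37, with the 8mer, was at -0.08, Slc25a22 with 4 matches at -0.08, and Slc25a23 with 2 at 0.13.

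Other genes of mitochondrial transport gave 0 calls with edgeR in each list. Of 12 genes that import carriers into the inner membrane 7 lay above 0 and 5 below, and their median log2 fold change was 0.05. Of 20 other mitochondrial membrane transporters, among them the pyruvate carrier, the calcium uniporter and the porins, 9 were positive and 11 negative, with a median of -0.01. Of 10 ATP synthase subunits 7 were positive, with a median of 0.06. Enzymes that work with the carriers, such as those of the malate-aspartate shuttle and the carnitine route, had 15 of 19 negative values and a median of -0.10, beside 47.6% negative over all genes. The median deviation of these enzymes from their own means, on the log2 scale, was -0.33 in antimiR-195 replicate 2. In the other antimiR-195 libraries it was -0.03, 0.09 and 0.06, and in the drug-free libraries 0.01, 0.11, 0.14 and 0.01. The part of antimiR-195 replicate 2 in the negative values was not tested.

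The 4 tested relatives without an Slc25a symbol, Ucp2, Ucp3, Mtch1 and Mtch2, had log2 fold changes of -0.12 to 0.09. Ucp3, the uncoupling protein of heart and muscle, had 49.1, 28.7, 31.2 and 30.2 CPM with antimiR-195 and 26.6, 51.4, 33.6 and 18.8 CPM without drug, so 1 library of each group was high. Among 10 regulators of mitochondrial genes 4 were positive and 6 negative, with a median of -0.06. Nrf1, a transcription factor for nuclear genes of mitochondria, had 13.1, 16.9, 15.3 and 14.2 CPM with antimiR-195 and 11.4, 12.4, 11.8 and 11.9 CPM without drug, with every antimiR-195 library above every drug-free one. Its log2 fold change was 0.33 ± 0.12 with an unadjusted edgeR p of 0.0206, and edgeR gave an adjusted p of 0.9999. Nrf1 is named because it had the smallest p of these 10 genes. Over all genes tested 0.530% had groups that did not overlap with antimiR-195 higher, and 1.27% had an unadjusted p below 0.05.

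Markers of other cell types overlapped between the groups in their summed levels. Summed levels of 10 macrophage genes were 1345 to 2225 CPM with antimiR-195 and 1575 to 2142 CPM without drug, and those of 8 fibroblast and matrix genes 6518 to 8670 CPM and 4589 to 8565 CPM, with and without antimiR-195. Neutrophil markers summed to 28.3 to 79.2 CPM with antimiR-195 and 31.4 to 37.4 CPM without drug, highest in antimiR-195 replicate 2. Median log2 fold changes were -0.12 for the macrophage genes, of which 7 of 10 lay below 0, 0.14 for the fibroblast and matrix genes and 0.31 for 6 neutrophil genes, with 0 called. The medians of 10 cardiomyocyte, 6 endothelial and 5 erythroid genes were 0.05, -0.04 and 0.08, also with 0 called. Their part in the values of the carriers was not tested.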

How the data were processed

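Polyadenylated RNA of left ventricle was sequenced in 8 TruSeq stranded libraries, per the labels' protocols. The authors deposited whole-number counts per Ensembl gene, and the tools named in the submitters' processing notes are HTSeq, STAR and DESeq, with GRCm38 as build and no versions. RPKM values deposited by the authors came from the same counts, and the gene length they imply was equal in all libraries to a relative spread of 3.36e-09. Library files and series table differed in 0 cells. Groups follow the drug field of the labels. Replicates were numbered in accession order and pair nothing.

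Symbols, gene types and 3′ UTRs came from GENCODE M21 (36345 of 38293 identifiers named). Genes kept by filterByExpr, 13972, were scaled with TMM factors (0.953 to 1.04) and tested with edgeR 4.0.16 in R 4.3.3 by its quasi-likelihood test without covariates, with Benjamini-Hochberg adjustment over all genes. SE and 95% intervals came from the quasi-likelihood F statistic. Alternatives used DESeq2 1.42.0 and limma 3.58.1. Ratios were tested with scipy 1.17.1. Scripts were tested on simulated data. The members, lists and tests were chosen with earlier results of these data known. Values by library are given for the 10 members of highest RPKM, the 6 of smallest p per direction, the 3 of largest SD and the 8 pairs, and other members were named after their values were seen. Intervals cover counting and replicate spread only. Lines of the count files that name no gene were left out, and the line for non-unique alignments held 42.1% to 47.8% of all counts. Among the tested members 1 is counted in the totals and not reported here by name or in the figures.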

Additional observations from a re-analysis of the deposited data

Results flagged for a closer look

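Some values stood apart from the other 3 libraries of their group, with a gap to the nearest one above Dixon's 95% critical value. Gaps were taken as a share of the range on the log2 scale, and the same rule on the printed CPM can give another list. Among 94 groups checked 7 such values were found, where chance gives about 1 in 20. Slc25a10 was low in antimiR-195 replicate 3, at 10.8 CPM against 14.8 to 15.8 CPM in the other antimiR-195 libraries. Slc25a16 was low in antimiR-195 replicate 2, at 17.1 CPM against 28.4 to 31.2 CPM. In the same library Slc25a27 was low, at 3.06 CPM against 4.67 to 4.87 CPM. Slc25a23 was low in antimiR-195 replicate 1, at 40.3 CPM against 50.1 to 51.2 CPM, and high in hydrogel replicate 2, at 47.8 CPM against 42.1 to 42.8 CPM. Slc25a53 was high in antimiR-195 replicate 4, at 2.05 CPM against 1.29 to 1.37 CPM. The log2 ratio of Slc25a4 to Slc25a5 was low in antimiR-195 replicate 3, at 3.80 against 3.95 to 3.97.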

How the results depend on the processing

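Under DESeq2 size factors, the DESeq2 test, limma-voom with quality weights, no filter on low counts, and limma-trend on log2(RPKM + 0.1) or log2(RPKM + 1), 0 members were called and 1 had groups that did not overlap. Leaving out each library in turn gave 0 called members, 1 to 3 members without overlap (2.04% to 3.81% of all genes tested), and medians from -0.09 to -0.01. Members below 0, a count added after seeing the data, numbered 22 to 31 without 1 library and 25 to 28 under the other settings. Among the members with values by library, limma-voom turned the sign of Slc25a1 (-0.10), Slc25a14 (-0.15), Slc25a28 (-0.09), Slc25a39 (-0.07) and Slc25a40 (0.05), and among the others that of Slc25a15 (-0.01), Slc25a25 (0.01), Slc25a27 (0.09), Slc25a32 (0.09) and Slc25a35 (0.11). Without the filter Slc25a28 and Slc25a39 were at -0.01 each. On log2(RPKM + 0.1) Slc25a3 was at 0.02 and Slc25a30 at -0.23, and on log2(RPKM + 1) they were at 0.02 and -0.03. The cause was not tested. Among the members with values by library, leaving out 1 library gave log2 fold changes that crossed 0 for Slc25a1 (-0.08 to 0.16), Slc25a3 (-0.11 to 0.06), Slc25a4 (-0.18 to 0.03), Slc25a5 (-0.10 to 0.03), Slc25a14 (-0.03 to 0.26), Slc25a16 (-0.20 to 0.05), Slc25a22 (-0.18 to 0.0013), Slc25a28 (-0.12 to 0.10), Slc25a30 (-0.18 to 0.49), Slc25a37 (-0.16 to 0.04), Slc25a39 (-0.12 to 0.09) and Slc25a40 (-0.23 to 0.13). Among the others the sign also turned for Slc25a10, Slc25a15, Slc25a17, Slc25a25, Slc25a26, Slc25a27, Slc25a29, Slc25a32, Slc25a35, Slc25a46 and Slc25a47 with at least 1 library left out. Differences in log2 ratio ranged from -0.15 to 0.00048 for Slc25a4 to Slc25a5, -0.0031 to 0.12 for Slc25a12 to Slc25a13, -0.21 to 0.08 for Slc25a37 to Slc25a28, -0.24 to 0.35 for Slc25a39 to Slc25a40, -0.17 to 0.28 for Slc25a33 to Slc25a36, -0.10 to 0.13 for Slc25a23 to Slc25a24, and -0.06 to 0.07 for Slc25a16 to Slc25a42. Slc25a44 was at -0.40 to -0.23 without 1 library and at -0.20 under limma-voom. Its groups did not overlap, so leaving out 1 library could hardly turn its sign. It was not alone in keeping its sign in all 14 alternatives. Others were Slc25a11, Slc25a12, Slc25a13, Slc25a20, Slc25a23, Slc25a24, Slc25a33, Slc25a34, Slc25a36, Slc25a38, Slc25a42, Slc25a45 and Slc25a51. With 13 members the seed count was the same over all annotated 3′ UTRs. No paired analysis was possible because replicate numbers were given in accession order.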
